A study of Mus musculus with 6 samples.

Results

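The genes described here encode the host gene of the Mll-AF9 fusion, its fusion partner and the proteins that dock on both. They are Kmt2a, Men1, Psip1, Mllt3, Mllt1, Mllt6, Mllt10, Dot1l, Aff1 and Aff4, 10 genes chosen by name for their place in this complex and all among the 16656 genes tested. Of 276623 transcripts listed, 76 are isoforms of these genes. The RNA came from myeloid cells of the spleen, sorted as CD11b+Gr1+ from tumor-bearing mice, with 3 libraries from Rpl22+/+ and 3 from Rpl22-/- mice. Both genotypes carried the Mll-AF9 allele, a knock-in that fuses the 5′ part of the endogenous Kmt2a gene to sequence of human AF9 under the Kmt2a promoter, so no library was free of it. Rpl22 encodes an RNA-binding protein of the large ribosomal subunit, and its germline loss is present in every cell of the Rpl22-/- mice. The Rpl22 line had been backcrossed to C57BL/6 and was crossed with the Mll-AF9 mice, whose age at sampling the labels do not give. The labels tie no library to a mouse of its own, and the study names a single mouse per genotype for the leukemia explants it sequenced. The 3 libraries of a genotype may therefore share 1 leukemia. If so, a difference between genotypes cannot be told apart from one between 2 leukemias, and p-values measure only the spread between these samples, which may be technical.

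MLL, the product of Kmt2a, is a histone methyltransferase that keeps developmental genes such as the Hoxa cluster active. In Mll-AF9 leukemia its N-terminal part, which binds chromatin through Menin (Men1) and LEDGF (Psip1), is joined to the C-terminal part of AF9 (Mllt3). That C-terminal part recruits the super elongation complex, built on the scaffolds AF4 (Aff1) and AFF4 (Aff4) together with the kinase P-TEFb, and, through a competing contact, the histone methyltransferase DOT1L with its cofactors AF10 (Mllt10) and AF17 (Mllt6). ENL (Mllt1) is the paralog of AF9 and makes the same contacts. The fusion RNA itself is not a listed transcript, so its reads could be assigned only to the mouse transcripts that it resembles, and they cannot be told apart from reads of the intact alleles.

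The sequences that separate the isoforms on which the results turn are shown here, read from the GENCODE vM21 transcripts on GRCm38. Kmt2a-203 consists of exon 1 of the full-length isoform Kmt2a-201, a private coding exon of 99 bases on the minus strand of chromosome 9 from 44878705 to 44878803, and exons 2 to 9 of Kmt2a-201, after which its model stops. Of its 4336 bases 4237 are shared with Kmt2a-201, which has 36 exons and 12224 further bases. In the following lines, from the minus strand of chr9:44852987-44880868 and chr9:44841055-44841592, the capitals mark the private exon, and then the start of exon 10, which Kmt2a-203 lacks.
Kmt2a-203, exon 1, private exon and exon 2: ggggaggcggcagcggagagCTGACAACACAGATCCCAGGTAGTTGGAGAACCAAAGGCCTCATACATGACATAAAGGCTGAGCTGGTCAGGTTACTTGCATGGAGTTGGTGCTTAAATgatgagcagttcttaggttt
Kmt2a-201, exon 1 and exon 2: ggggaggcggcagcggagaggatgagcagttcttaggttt
Kmt2a-201, exon 9 and exon 10: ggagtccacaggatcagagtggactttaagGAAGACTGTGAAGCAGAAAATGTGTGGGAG

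Psip1 gives a long form, Psip1-201 (p75), which carries the domain that binds the Menin-MLL complex, and short forms, Psip1-202 and Psip1-203 (p52), which lack it. The lower-case bases are shared by all of them, and the capitals mark the bases after the point at which the forms part, within chr4:83461212-83463614 on the minus strand.
Psip1-201: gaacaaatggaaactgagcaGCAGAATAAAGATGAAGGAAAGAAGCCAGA
Psip1-202: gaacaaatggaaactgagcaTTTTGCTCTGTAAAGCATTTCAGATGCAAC
Psip1-203: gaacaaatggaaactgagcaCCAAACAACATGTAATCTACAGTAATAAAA
Aff1-201 and Aff1-202 differ in their opening exons, which lie 227 bases apart on the plus strand (chr5:103754705-103783143 and chr5:103754329-103783143 as printed). These contribute 41 and 17 coding bases, shown in capitals before the shared exon 2.
Aff1-201: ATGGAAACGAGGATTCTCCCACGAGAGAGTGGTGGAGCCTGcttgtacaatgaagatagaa
Aff1-202: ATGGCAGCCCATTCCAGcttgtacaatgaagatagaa
Mllt3-207 is a 422-base isoform that starts inside the Mllt3 gene. Its coding sequence of 165 bases lies wholly within that of the 6069-base Mllt3-201, on the minus strand of chr4:87774015-87782319, and ends at the same stop codon, so it covers the C-terminal end of AF9. The capitals mark its start and stop codons.
Mllt3-207: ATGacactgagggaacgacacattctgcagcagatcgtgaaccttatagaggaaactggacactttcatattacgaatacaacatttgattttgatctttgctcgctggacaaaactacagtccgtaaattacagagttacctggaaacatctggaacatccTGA

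The libraries held from 35828500 (Rpl22-/- replicate 1) to 102866127 estimated reads. Rpl22 RNA was lower in the Rpl22-/- libraries, at 73.9 ± 15.8 CPM (read counts scaled to a common library size, mean ± SD, n = 3) against 178 ± 48.8 in Rpl22+/+, and its groups did not overlap (log2 fold change −1.27 ± 0.25 (SE), adjusted p = 0.0106). It was not at 0, and the gene total includes any RNA from outside a deleted part. Rpl22+/+ replicate 2 stood apart from the other libraries of its genotype, with a correlation of log2 CPM of 0.938 and 0.946 with replicates 1 and 3, against 0.996 between those. The log2 fold change of each of the 10 genes without it is given below. Of 5 genes of antigens used to sort or expected on the sorted cells, 2 were lower in Rpl22-/- and 3 did not pass. Itgam, which encodes CD11b, was at 1930 ± 137 CPM in Rpl22+/+ and 948 ± 117 in Rpl22-/-, and Ly6g, which encodes the main Gr1 antigen, at 159 ± 16.2 and 14.2 ± 2.64. Of the other Gr1 antigens, Ly6c2 was at 967 ± 274 and 1380 ± 262 CPM (log2 fold change 0.51, edgeR adjusted p = 0.180, and 0.0347 in a fit with the replicate number as a block). Ly6c1 was at 10.3 ± 2.69 and 13.5 ± 4.02. Ptprc, which encodes CD45, was at 779 ± 542 and 407 ± 102. The summed CPM of 6 T-cell markers was 46.1 to 62.3 in Rpl22+/+ and 17.0 to 20.6 in Rpl22-/-, with 6 of 6 lower by the test. That of 6 erythroid markers was 53.8 to 82.8 and 344 to 684, with 5 of 6 higher. Summed B-cell markers (5 genes, 1 lower) ran from 567 to 721 and from 359 to 550. Those of megakaryocytes (5 genes, 2 tested, none passing) ran from 2.79 to 4.51 and from 3.36 to 3.64. Those of stroma (4 genes, 3 tested, none passing, Pecam1 passing with that block) ran from 59.7 to 71.2 and from 74.3 to 94.9. Pecam1 made up most of the stroma sum, at 59.2 ± 6.23 and 83.6 ± 10.7 CPM. Col1a1 and Cdh5 had lower means in Rpl22-/- (log2 fold changes −0.49 and −0.65), and Col3a1 was not tested. The part of these populations in the values below was not tested, and fewer cells of a type cannot be told apart from less RNA per cell.

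The comparison of genotypes asks whether the machinery of the fusion is expressed at another level without Rpl22. Of the 10 genes, 1 passed the gene test, edgeR's quasi-likelihood test with an adjusted p under 0.05, and it was lower in Rpl22-/-: Mllt6. Over all genes tested 27.6% passed, 13.7% higher and 13.8% lower. The groups did not overlap for 5 of the 10 genes (Kmt2a, Men1, Mllt3, Mllt6 and Mllt10), against 46.1% of all genes tested. The median log2 fold change of the 10 genes was 0.23, and that of all genes 0.07. With the replicate number as a block, 3 of the 10 passed (Kmt2a and Men1 higher, Mllt6 lower), against 33.8% of all genes in that fit. Without Rpl22+/+ replicate 2, 4 passed (Men1 and Mllt1 higher, Mllt6 and Aff4 lower), against 40.0% of all genes. By limma on log2(TPM + 1) 2 passed (Men1 and Mllt1 higher), against 32.2%. Each of the other single libraries left out gave a count of 0.

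**Figure D1:**
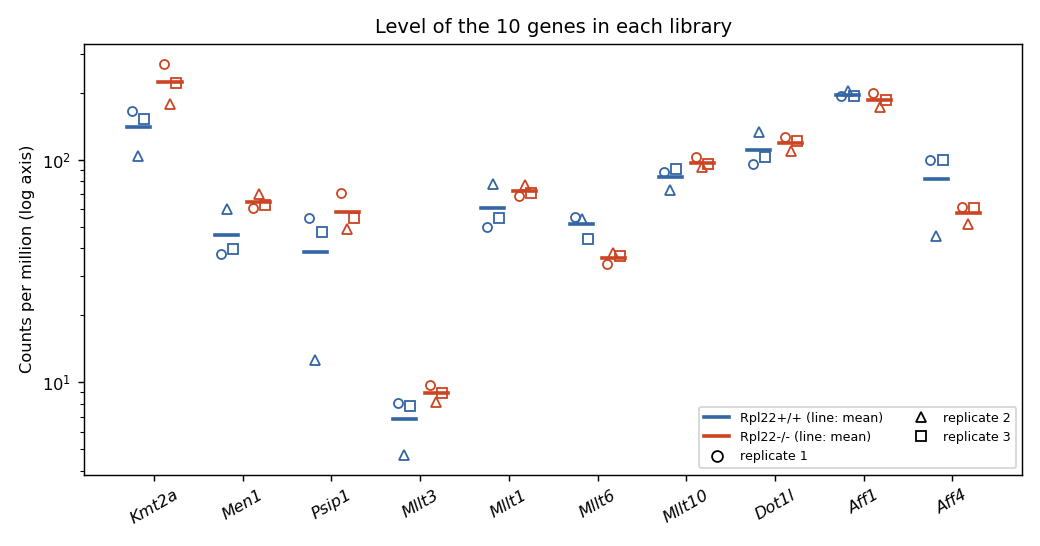
Level of each of the 10 genes in CPM (log axis) in the 3 Rpl22+/+ (blue) and 3 Rpl22-/- (red) libraries, with 1 symbol per replicate number and a line at the mean of each genotype. Rpl22+/+ replicate 2 (triangle) was the lowest library of all for Psip1, at 12.6, and for Aff4, at 45.6.

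Kmt2a, the gene that supplies the chromatin-binding part of the fusion, lies on chromosome 9 from 44714652 to 44792594 on the minus strand (GRCm39, as the other gene positions below). It was at 165, 104 and 152 CPM in Rpl22+/+ replicates 1 to 3 and at 271, 178 and 222 in Rpl22-/-. All Rpl22-/- libraries lay above all Rpl22+/+ libraries, but the log2 fold change of 0.67 ± 0.23 (SE) did not pass the test (adjusted p = 0.0749). With the replicate block the adjusted p was 0.0116, and without Rpl22+/+ replicate 2 the log2 fold change was 0.45 (adjusted p = 0.0747). Counts per gene rise when longer isoforms make up more of a gene, and in the fit with an offset for isoform length the log2 fold change was 0.28. On the TPM scale, which is per length, Kmt2a was at 15.2 ± 4.34 and 19.8 ± 6.06.

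The isoforms of Kmt2a changed by different amounts. Kmt2a was the only one of the 10 genes that passed the isoform usage test (edgeR diffSpliceDGE with Simes' method over the isoforms of a gene, adjusted p = 0.000228), which 2.56% of 10078 genes passed. Its adjusted p stayed under 0.05 in all 10 alternatives run, from 6.09e-06 to 0.00811, and was 0.000424 by limma's diffSplice. Kmt2a-203, the isoform with the private exon printed above, held 17.2, 32.0 and 25.4% of Kmt2a TPM in Rpl22+/+ replicates 1 to 3 and 0.110, 0.216 and 1.99% in Rpl22-/-. Its estimated reads were 695, 1002 and 1082 in Rpl22+/+ and 3, 11 and 132 in Rpl22-/-. Its log2 fold change relative to the other isoforms of the gene was −3.70 (adjusted p = 0.000175 over all isoforms, edgeR). As a transcript on its own it fell short of the threshold, at a log2 fold change of −4.72 ± 1.10 (edgeR adjusted p = 0.0579). This fitted value depends on the few reads in Rpl22-/-. The transcript passed without Rpl22-/- replicate 3 (edgeR adjusted p = 0.0176) and by limma-voom (adjusted p = 0.0189). In the other alternatives it did not pass, with edgeR adjusted p from 0.0513 to 0.167.

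The full-length isoform Kmt2a-201 took a higher share in every Rpl22-/- library than in any Rpl22+/+ library. It held 62.5, 49.8 and 50% of Kmt2a TPM in Rpl22+/+ and 79.3, 81.6 and 83.0% in Rpl22-/-. Kmt2a-206, a 521-base model of 4 exons whose bases all lie in exons 1 to 3 of Kmt2a-201, with a further splice inside exon 3, was at 11.7, 12.9 and 10.7% against 5.12, 4.68 and 3.29%, from 33 to 39 reads per Rpl22+/+ library and 13 to 19 per Rpl22-/- library. The shares of both isoforms did not overlap between genotypes, but relative to the rest of the gene neither passed on its own (log2 0.13 for Kmt2a-201 and −1.23 for Kmt2a-206, edgeR adjusted p = 1.000 for each). Kmt2a-202, which differs from Kmt2a-201 by 9 bases, held 7.10 ± 3.33% and 7.51 ± 2.14% (exact permutation p = 0.80, two-sided).

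Grouped by structure after the values were seen, the 5′ isoforms Kmt2a-203 and Kmt2a-206 summed to 5.23, 4.59 and 6.28 TPM in Rpl22+/+ and to 1.37, 0.689 and 1.02 in Rpl22-/-. The full-length isoforms Kmt2a-201 and Kmt2a-202 summed to 12.3, 5.57 and 10.6 TPM in Rpl22+/+ and to 22.4, 12.9 and 17.3 in Rpl22-/-. For each full-length molecule there were thus 0.424, 0.824 and 0.593 5′ molecules in Rpl22+/+ and 0.0611, 0.0535 and 0.0591 in Rpl22-/-. The exact permutation p of this ratio is 0.10, two-sided, the smallest that 3 against 3 libraries can give. In reads the 5′ isoforms made up 6.34 to 13.4% of Kmt2a in Rpl22+/+ and 0.160 to 0.636% in Rpl22-/-. The annotation gives Kmt2a-203 and Kmt2a-206 as models whose 3′ end was not found and in the lowest support class (5), and Kmt2a-201 and Kmt2a-202 are in that class too. Reads over the shared bases are split between these models by Salmon, and no file used here gives the uncertainty of that split. Kmt2a-203 covers exons of the 5′ part of Kmt2a, the part that such a fusion carries, and the part of fusion RNA in these values cannot be told apart.

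**Figure D2:**
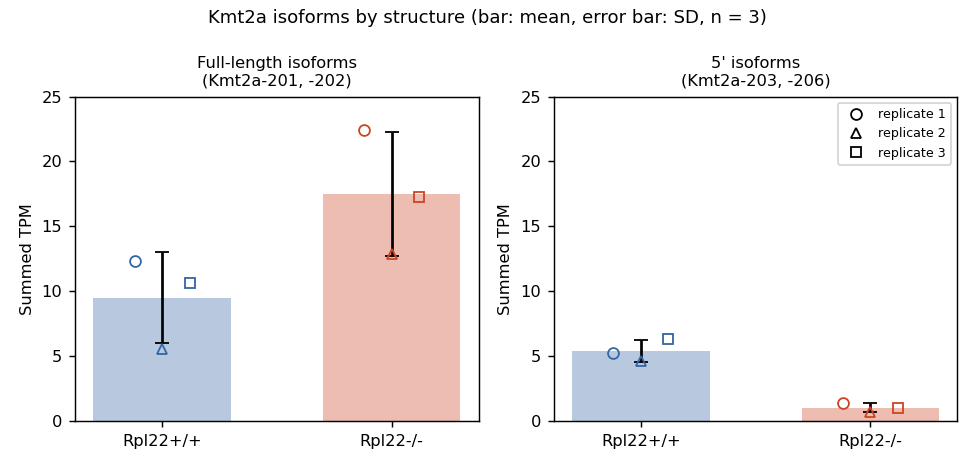
Summed TPM of the full-length (left) and 5′ (right) isoforms of Kmt2a, with bars for the mean, error bars for the SD and symbols for the 3 libraries of each genotype. The 5′ isoforms averaged 5.37 TPM in Rpl22+/+ and 1.02 in Rpl22-/-, and the full-length isoforms 9.49 and 17.5.

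The tethers of MLL to chromatin did not pass the gene test. Men1, encoding Menin (chromosome 19, 6385009 to 6390921), was at 37.9, 60.1 and 39.6 CPM in Rpl22+/+ and at 60.7, 69.9 and 62.6 in Rpl22-/-. The groups did not overlap, the lowest Rpl22-/- library being just above Rpl22+/+ replicate 2 (log2 fold change 0.49 ± 0.20 (SE), edgeR adjusted p = 0.126). Without Rpl22+/+ replicate 2 the log2 fold change was 0.69 (adjusted p = 0.00548), and with the replicate block 0.52 (adjusted p = 0.0415). Men1 passed in 5 of 17 alternatives, with adjusted p up to 0.342 (edgeR, without Rpl22+/+ replicate 3). Per length Men1 was at 21.9 ± 2.02 TPM and 33.7 ± 1.06 TPM. On that scale limma on log2(TPM + 1) gave 0.60 (adjusted p = 0.00556), where the median of all genes was 0.10. Its isoform Men1-203 held 27.9, 31.9 and 31.8% of Men1 TPM in Rpl22+/+ and 37.6, 38.6 and 35.9% in Rpl22-/-, Men1-201 30 ± 4.57% and 26.9 ± 6.03%, and Men1-206 19.8 ± 2.34% and 17.6 ± 1.04%. Men1 did not pass the usage test (adjusted p = 1.000, and 0.0112 without Rpl22+/+ replicate 1).

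Psip1, encoding LEDGF (chromosome 4, 83373917 to 83404696, minus strand), varied widely between the Rpl22+/+ libraries. It was at 55.0, 12.6 and 47.6 CPM in Rpl22+/+ and at 70.9, 49.0 and 55.0 in Rpl22-/-. The log2 fold change was 0.60 ± 0.50 (SE) (edgeR adjusted p = 0.432) with all libraries and 0.13 without Rpl22+/+ replicate 2, so that this single library decides its size. The balance of the long and short forms overlapped between genotypes. The long form p75 (Psip1-201) held 54.2, 46.9 and 57.1% of Psip1 TPM in Rpl22+/+ and 54.4, 61.7 and 60.3% in Rpl22-/-. There were 0.492, 0.809 and 0.449 short molecules per long one in Rpl22+/+ and 0.468, 0.435 and 0.487 in Rpl22-/- (exact permutation p = 0.40, two-sided). Within the short forms, Psip1-202 held 12.9 ± 0.944% and 8.73 ± 1.18%, without overlap, and Psip1-203 17.2 ± 7.32% and 18.5 ± 2.91%. The retained-intron model Psip1-206 held 12.9 ± 2.33% and 10.6 ± 3.95%.

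Mllt3, encoding AF9, was the least abundant of the 10 genes in reads. The gene lies on chromosome 4 from 87688162 to 87951601 on the minus strand. It was at 8.09, 4.71 and 7.80 CPM in Rpl22+/+ and at 9.73, 8.18 and 8.91 in Rpl22-/-, which did not overlap by a margin of under 0.1 CPM. The log2 fold change was 0.38 ± 0.24 (SE) (edgeR adjusted p = 0.294), and 0.12 without Rpl22+/+ replicate 2. Most Mllt3 molecules were assigned to the short 3′ isoform Mllt3-207, whose coding sequence is printed above. It held 70.6, 85.6 and 76.0% of Mllt3 TPM in Rpl22+/+ and 75.5, 76.5 and 76.8% in Rpl22-/-, from 106 to 265 reads per library. The full-length Mllt3-201 held 4.68 ± 0.226% and 4.32 ± 0.354%, while taking 44.2 ± 5.59% and 38.9 ± 2.51% of the reads, and the 3′ isoform Mllt3-208 11.3 ± 3.02% and 8.70 ± 0.543%. The 3′ isoforms (Mllt3-202, Mllt3-207 and Mllt3-208) stood at 19.3 ± 1.02 molecules per full-length one in Rpl22+/+ and 20.5 ± 1.64 in Rpl22-/- (exact permutation p = 0.40, two-sided). Because Mllt3-207 is short, this ratio rests on few reads divided by a small effective length. The human AF9 part of the fusion could add reads to the 3′ part of Mllt3, which cannot be told apart here.

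Mllt1, encoding ENL (chromosome 17, 57198385 to 57242415, minus strand), was at 50, 77.5 and 55.0 CPM in Rpl22+/+ and 69.1, 77.4 and 70.8 in Rpl22-/-, and the groups overlapped through Rpl22+/+ replicate 2. The log2 fold change was 0.25 ± 0.19 (SE) (edgeR adjusted p = 0.383), and 0.42 without that library (adjusted p = 0.0302). Per length Mllt1 was at 19.7, 23.3 and 21.3 TPM in Rpl22+/+ and 28.2, 27.1 and 27.8 in Rpl22-/-, without overlap. Mllt1 passed by limma on log2(TPM + 1) (0.36, adjusted p = 0.0310) and, by edgeR, with no composition factor (0.40, adjusted p = 0.0470). It passed in 4 of 17 alternatives, with adjusted p up to 0.726 (edgeR, without Rpl22+/+ replicate 1). One coding isoform, Mllt1-201, held 93.3 ± 1.92% and 94.2 ± 2.15% of its TPM. AF9 and ENL are competing readers of acylated histones. The TPM of all Mllt3 isoforms relative to that of Mllt1 was 0.624 ± 0.231 in Rpl22+/+ and 0.631 ± 0.0776 in Rpl22-/- (exact permutation p = 1.0, two-sided). Most of the Mllt3 TPM is the short isoform described above, which covers only the C-terminal end of AF9. The ratio therefore does not give the balance of full-length AF9 and ENL RNA.

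**Figure D3:**
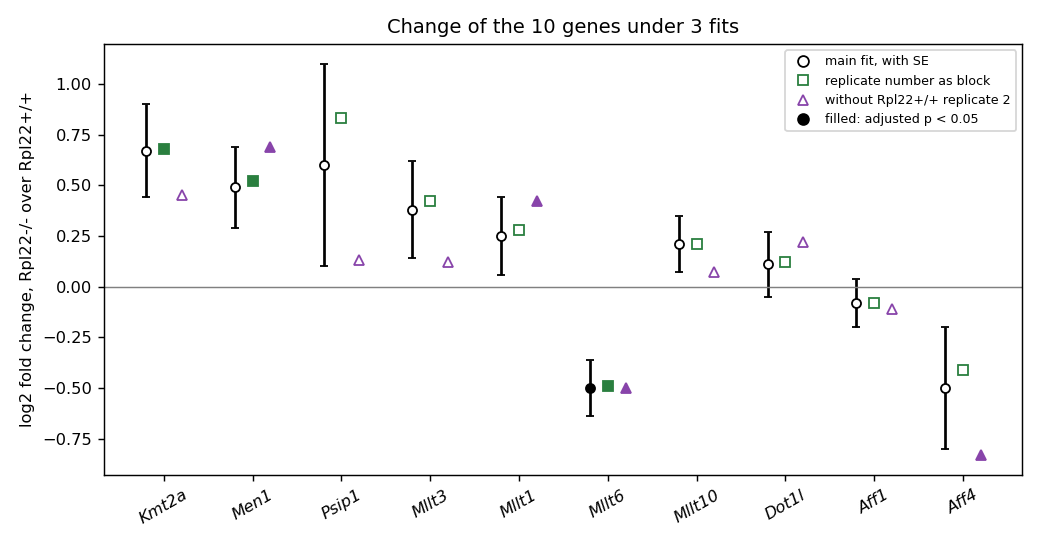
log2 fold change of the 10 genes, Rpl22-/- over Rpl22+/+, in the fit with all libraries (circles, with SE), with the replicate number as a block (squares) and without Rpl22+/+ replicate 2 (triangles), with filled symbols for an adjusted p under 0.05. Mllt6 is filled in all 3 fits near −0.50, and Psip1 drops from 0.60 to 0.13 without that library.

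The DOT1L branch held the 1 gene that passed. Mllt6, encoding AF17 (chromosome 11, 97554240 to 97576289), was at 55.5, 54.3 and 43.9 CPM in Rpl22+/+ and at 33.9, 38.1 and 37.0 in Rpl22-/-. Every Rpl22-/- library was below every Rpl22+/+ library, and the log2 fold change was −0.50 ± 0.14 (SE) (edgeR adjusted p = 0.0416), a level 0.710 times that in Rpl22+/+. The call is close to the threshold, and Mllt6 passed in 6 of 17 alternatives, with adjusted p from 0.0147 to 0.143 and a log2 fold change from −0.60 to −0.37. Without Rpl22+/+ replicate 2 it was −0.50 (adjusted p = 0.0304). Its main isoform Mllt6-201 held 77.2 ± 4.89% and 83.0 ± 7.51% of its TPM, Mllt6-202 10.3 ± 1.29% and 11.2 ± 4.41%, and the non-coding Mllt6-204 12.1 ± 4.09% and 5.78 ± 5.11%.

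Mllt10, encoding AF10, the paralog of AF17 (chromosome 2, 18060048 to 18217199), was at 87.9, 73.4 and 90.9 CPM in Rpl22+/+ and at 103, 92.6 and 95.7 in Rpl22-/-. Its groups did not overlap, by a narrow margin, and the log2 fold change was 0.21 ± 0.14 (SE) (edgeR adjusted p = 0.317), and 0.07 without Rpl22+/+ replicate 2. In TPM there were 3.01, 2.88 and 4.51 Mllt10 molecules per Mllt6 molecule in Rpl22+/+ and 6.82, 5.11 and 6.31 in Rpl22-/-. This ratio did not overlap between genotypes (3.47 ± 0.904 and 6.08 ± 0.879, exact permutation p = 0.10, two-sided, the smallest possible). It counts all isoforms of each gene, short non-coding models included. Mllt10 was spread over several isoforms. Mllt10-201 held 31.6 ± 0.376% and 29.0 ± 0.253%, Mllt10-203 17.0 ± 2.75% and 19.0 ± 4.68%, Mllt10-205 13.6 ± 0.888% and 11.9 ± 1.66%, and Mllt10-202 10.3 ± 1.85% and 12.5 ± 4.23%. The short non-coding Mllt10-211 held 6.09 ± 1.05% and 11.6 ± 3.48%, from 9 to 48 reads per library. Its gene did not pass the usage test (adjusted p = 1.000, and 0.00330 without Rpl22-/- replicate 3).

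Dot1l, the methyltransferase itself (chromosome 10, 80591040 to 80631295), was at 96.3, 133 and 103 CPM in Rpl22+/+ and at 127, 110 and 121 in Rpl22-/-. The groups overlapped, with a log2 fold change of 0.11 ± 0.16 (SE) (edgeR adjusted p = 0.681), and 0.22 without Rpl22+/+ replicate 2. Dot1l-201 held 73.4 ± 2.87% and 70.5 ± 2.61% of its TPM, and Dot1l-203, a model of the 3′ end, 10.1 ± 3.42% and 14.9 ± 5.57%.

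Neither scaffold of the super elongation complex passed the gene test. Aff4 (chromosome 11, 53241660 to 53312657) was at 99.4, 45.6 and 99.9 CPM in Rpl22+/+ and at 61.2, 51.5 and 61.0 in Rpl22-/-. Replicates 1 and 3 of Rpl22+/+ were above every Rpl22-/- library and replicate 2 below all of them, and the log2 fold change was −0.50 ± 0.30 (SE) (edgeR adjusted p = 0.281). Without Rpl22+/+ replicate 2 it was −0.83 (adjusted p = 0.00137), the only 1 of 17 alternatives in which Aff4 passed. Aff4-201, the full-length isoform, held 52.9 ± 7.53% and 59.3 ± 2.34% of Aff4 TPM. The retained-intron models Aff4-202 and Aff4-208 held 15.1 ± 3.50% and 11.1 ± 3.89% in Rpl22+/+ and 15.5 ± 2.71% and 10.6 ± 3.59% in Rpl22-/-, and the short Aff4-207 10.9 ± 3.97% and 11.8 ± 4.31%.

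Aff1, encoding AF4 (chromosome 5, 103840240 to 104003188), had the highest CPM of the 10 genes over the Rpl22+/+ libraries. It was at 194, 203 and 193 CPM there and at 199, 173 and 186 in Rpl22-/- (log2 fold change −0.08 ± 0.12 (SE), edgeR adjusted p = 0.683), a difference whose sign turned when no composition factor was used (0.05) or TPM was fitted (0.07) and which was −0.11 without Rpl22+/+ replicate 2. The shares of its alternative opening exons did not overlap. Aff1-201 held 6.26, 4.40 and 8.84% of Aff1 TPM in Rpl22+/+ and 26.7, 11.5 and 10.2% in Rpl22-/-, while Aff1-202 held 80.6, 82.0 and 76.7% and 59.4, 71.9 and 67.9%. Rpl22-/- replicate 1 stood highest for Aff1-201. The exact permutation p of each is 0.10, two-sided, the smallest possible, and Aff1 did not pass the usage test (adjusted p = 1.000). The retained-intron model Aff1-203 held 13 ± 1.03% and 16.4 ± 3.46%. Aff4 stood at 0.538 ± 0.175 of the TPM of Aff1 in Rpl22+/+ and at 0.355 ± 0.0232 in Rpl22-/- (exact permutation p = 0.30, two-sided).

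**Figure D4:**
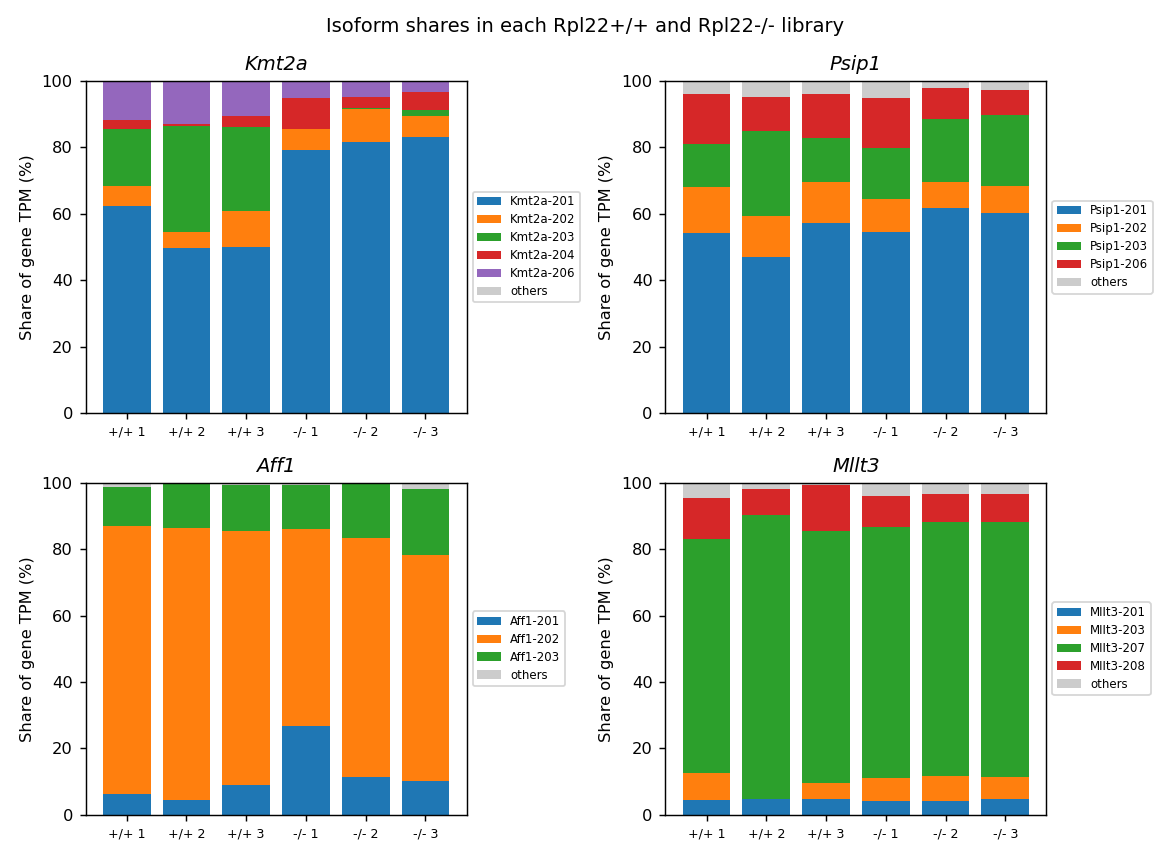
Share of each gene's TPM, in percent, taken by its isoforms in the 6 libraries, for Kmt2a, Psip1, Aff1 and Mllt3. Kmt2a-203 (green) holds 17.2 to 32.0% in the Rpl22+/+ libraries and at most 1.99% in the Rpl22-/- libraries, Aff1-201 (blue) at most 8.84% and at least 10.2%, and Mllt3-207 (green) over 70% in every library.

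Across all 10 genes, 54 isoforms were tested and none passed the transcript test by edgeR, against 6.94% of 57835 transcripts. At an unadjusted p under 0.05 there were 9 of the 54, against 20.9% of all transcripts. By limma-voom 1 passed (Kmt2a-203), against 6.86%, and with the replicate block 1 (Kmt2a-201, log2 fold change 0.81, adjusted p = 0.0430), against 4.77%. Without Rpl22+/+ replicate 2, Aff4-201 (−0.81, edgeR adjusted p = 0.0191) and Men1-203 (1.03, edgeR adjusted p = 0.0477) passed, against 7.55% of transcripts, and without Rpl22-/- replicate 3 Kmt2a-203 did (−7.04), against 1.76%. The TPM shares of 13 of the 54 did not overlap between genotypes, against 18.6% of the 46279 isoforms in the usage test.

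Per length, Mllt10 (33.5 ± 7.82 TPM) and Aff1 (32.4 ± 3.62) had the highest levels in Rpl22+/+ and overlapped each other. Dot1l (23.8 ± 0.148), Men1 (21.9 ± 2.02), Mllt1 (21.5 ± 1.77), Psip1 (21.2 ± 13.6), Aff4 (17.9 ± 7.22), Kmt2a (15.2 ± 4.34), Mllt3 (13.1 ± 4.16) and Mllt6 (9.81 ± 2.18) followed, each overlapping the next. In Rpl22-/- the order was Mllt10 (41.9 ± 5.30), Aff1 (34.1 ± 4.44), Men1 (33.7 ± 1.06), Psip1 (31.8 ± 9.79), Dot1l (29.2 ± 5.17), Mllt1 (27.7 ± 0.565), Kmt2a (19.8 ± 6.06), Mllt3 (17.5 ± 2.50), Aff4 (12.2 ± 2.32) and Mllt6 (6.91 ± 0.342). There the neighbours overlapped except Mllt1 and Kmt2a, Mllt3 and Aff4, and Aff4 and Mllt6. These levels sum all isoforms of a gene, and short models add TPM from few reads. Most of the Mllt3 level is its short isoform, and part of the Mllt10 level comes from short non-coding models. The order is therefore not one of full-length or coding RNA, which was not ranked.

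Position moved with these values for some of the genes. Among genes averaging 50 counts or more, those of chromosome 9, which holds Kmt2a, had a median log2 fold change of 0.34, and those of chromosome 4, which holds Mllt3 and Psip1, of 0.43. On the other chromosomes it ran from −0.08 to 0.08. The part of this shift in the values of Kmt2a (0.67), Mllt3 (0.38) and Psip1 (0.60) was not tested.

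The wider complexes were described from gene lists chosen with earlier results known. Of 15 further genes of the super elongation complex and P-TEFb, 2 were lower in Rpl22-/- and 13 did not pass (median log2 fold change −0.23), so that 13.3% were lower, against 13.8% of all genes tested. Aff3, a paralog of the scaffolds, was at 12.8 ± 1.68 and 8.14 ± 0.205 CPM (log2 fold change −0.65 ± 0.15 (SE), edgeR adjusted p = 0.0223). Eaf1, which binds the ELL elongation factors, was at 72.5 ± 8.53 and 53.3 ± 0.598 CPM (−0.44 ± 0.13, edgeR adjusted p = 0.0464), and neither passed by limma on log2(TPM + 1) (adjusted p = 0.0924 for Aff3 and 0.214 for Eaf1). The kinase Cdk9 and its cyclins did not pass, with Cdk9 at −0.26, Ccnt1 at 0.17 and Ccnt2 at 0.49.

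In the polymerase-associated factor complex, which MLL binds and which couples it to elongating polymerase, 2 of 6 genes were higher and none lower (median 0.23), or 33.3% passing against 27.6% of all genes. Leo1 was at 16.3 ± 0.370 CPM in Rpl22+/+ and 34.9 ± 1.39 in Rpl22-/- (1.10 ± 0.12 (SE), edgeR adjusted p = 0.00109). Wdr61 was at 20.3 ± 1.07 and 35.3 ± 2.45 CPM (0.80 ± 0.13, edgeR adjusted p = 0.00477). Both genes lie on chromosome 9, whose median shift is given above. Paf1, Cdc73, Ctr9 and Rtf1 did not pass, at −0.06, 0.06, 0.40 and −0.26, and with the replicate block Ctr9 did (0.40, edgeR adjusted p = 0.0487).

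Of 18 genes of the Mll family and COMPASS, the complex of histone methyltransferase subunits, 1 was higher and 17 did not pass (median 0.08), so that 5.56% passed, against 27.6% of all genes. Ash2l, a core subunit, was at 47.5 ± 5.48 CPM in Rpl22+/+ and 110 ± 5.27 in Rpl22-/- (1.21 ± 0.14 (SE), edgeR adjusted p = 0.00127). With the replicate block 5 of the 18 passed, with Dpy30 and Wdr82 higher and Setd1b and Ncoa6 lower beside Ash2l (33.8% of all genes passed in that fit), and 6 did without Rpl22+/+ replicate 2 (40.0% of all genes). The other methyltransferases of the family, Kmt2b (−0.14), Kmt2c (−0.17) and Kmt2d (0.10), did not pass. Of 7 binding partners of Menin, LEDGF, AF9 and ENL, 1 was higher and the rest did not pass (median 0.04), or 14.3% passing. Myb, a transcription factor that recruits MLL through Menin and on which this leukemia depends, was at 178 ± 36.7 and 476 ± 117 CPM (1.42 ± 0.24 (SE), edgeR adjusted p = 0.00621).

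**Figure D5:**
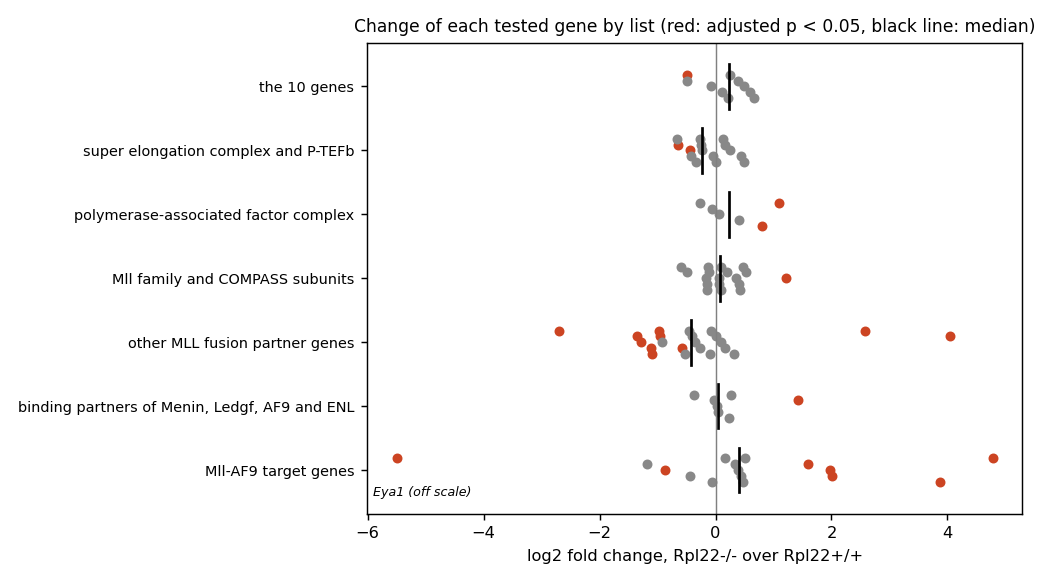
log2 fold change, Rpl22-/- over Rpl22+/+, of each tested gene in the 10 genes and in 6 further lists, with genes at an adjusted p under 0.05 in red and a black line at the median of each list. The 10 genes lie between −0.50 and 0.67, and Eya1, beyond the axis, is drawn near its left end.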

How the data were processed

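Stranded mRNA libraries of CD11b+Gr1+ splenocytes were sequenced as paired ends. Per the labels and methods, the authors used Trimmomatic for trimming and Salmon for quantification (versions and transcript set not given in the sources used here), and deposited estimated counts and TPM per transcript for each library. The deposited table of the authors' own comparison was read for gene positions (GRCm39) alone. Estimated counts were rounded and summed to genes with GENCODE vM21, matched on transcript identifiers without versions (136036 of 276623 transcripts, 97.96 to 98.14% of reads). A total of 29374 genes had any read.

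Genes and transcripts were tested with edgeR 4.0.16 (TMM factors, filterByExpr, quasi-likelihood F test, genotype as the only term), isoform usage with diffSpliceDGE, and p-values were adjusted by Benjamini and Hochberg over all features of each table. An adjusted p under 0.05 passed, SEs are those implied by F, and shares are percentages of a gene's summed TPM. CPM are scaled with the TMM factors. Single shares and ratios were compared by an exact permutation test. The alternatives were DESeq2 1.42.0 (size factors and test), no or upper-quartile factors, other count filters, limma 3.58.1 (voom, diffSplice and log2(TPM + 1) or log2(TPM + 0.1)), a length offset, a replicate block and leaving out each library. On simulated counts the tests recovered the set changes. There diffSpliceDGE made more false calls than its threshold allows, and limma's diffSplice made fewer than it, so both values are given for Kmt2a. The simulated counts had a common dispersion, no outlying library and no split of reads between overlapping isoforms. They do not show how the tests behave under those conditions.

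Replicate numbers are shared by the genotypes in the labels. Deviations from the group means correlated between same-numbered libraries at 0.640, 0.779 and 0.137 over 13202 genes averaging 50 counts or more. Rpl22+/+ replicate 3 correlated more with Rpl22-/- replicate 1 (0.502). The labels do not say what the numbers mark, and the main tests and permutation tests do not use them. The fit with the block is an alternative, and it rests on pairs that these correlations only partly bear out. Blocked values are printed where they change a call. All 6 pairs of libraries within a genotype differed by more than sampling noise. One gene of the target list is not reported here. Named were all 10 genes, isoforms with at least 10% of their gene's TPM in either genotype, and in each list the 2 genes of largest change among those passing in each direction. Genes and isoforms named beyond this rule, and the grouping of Kmt2a isoforms by structure, were chosen after their values were seen. The genes and lists were chosen with earlier results of these data known.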

Additional observations from a re-analysis of the deposited data

How the results depend on the processing

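The fit with the replicate number as a block brought Kmt2a and Men1 past the threshold, raised the count of passing genes among the 10 from 1 to 3, that of the COMPASS list from 1 to 5, of the polymerase-associated factor list from 2 to 3, of the fusion partner list from 10 to 11, of the target list from 7 to 9 and that of the isoforms of the 10 genes from 0 to 1, and turned Psip1-202 to 0.12. It changed no other call among the 10 genes and their usage tests. The count of the 10 genes was 2 with no composition factor and with both fits of TPM, and 0 with upper-quartile factors, no count filter or the length offset. With no composition factor the median of all genes moved from 0.07 to 0.19. The elongation list (2 passing) had 1 with no count filter and by limma on log2(TPM + 1), and 0 by limma on log2(TPM + 0.1). The COMPASS list (1) had 2 with DESeq2 size factors, upper-quartile factors or limma-voom, 3 with no count filter, a minimum mean of 50 counts, the length offset or the DESeq2 test, and 4 with no composition factor and both fits of TPM. The binding partner list (1) had 3 with no composition factor and by limma on log2(TPM + 1), and 2 by limma on log2(TPM + 0.1) and with the length offset. By limma-voom 1 isoform passed. In shares of estimated counts in place of TPM, the difference of Kmt2a-203, Rpl22-/- minus Rpl22+/+, was −9.28 percentage points, against −24.1 in TPM.

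With single libraries left out, the passing counts ran from 0 to 4 of the 10 genes, 2622 to 6851 of all genes (4594 with all libraries), 0 to 3 on the elongation list, 2 to 3 on the polymerase-associated factor list, 1 to 6 on the COMPASS list, 8 to 15 on the fusion partner list, 1 to 3 on the binding partner list, 6 to 11 on the target list, 0 to 2 isoforms and 1 to 2 usage tests. Without Rpl22-/- replicate 3 the count of all genes was 2761, and without Rpl22-/- replicate 1 it was 3040. The share difference of Kmt2a-203 ran from −27.9 to −20.5 points. Signs turned for changes that never passed: Aff1 to 0.05 with no composition factor and 0.07 in both fits of TPM, Mllt10-205 and Dot1l-201 to −0.04 with DESeq2 size factors, and Psip1-202 to 0.09 by limma-voom. With libraries left out Mllt3-208 ran from −0.41 to 0.12, Mllt10-201 from −0.01 to 0.10, Mllt10-205 from −0.07 to 0.07, Psip1-202 from −0.50 to 0.34, Psip1-206 from −0.33 to 0.65 and Dot1l-201 from −0.09 to 0.23. The cause of these moves was not tested. Depth limits Mllt10-211, Mllt6-204 and Kmt2a-206 most, the named isoforms with the fewest reads on average.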

Other observations

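Genes known as other partners of MLL in leukemia, and known targets of Mll-AF9, were described in the same way. Of 22 other fusion partner genes, 2 were higher and 8 lower in Rpl22-/- and 12 did not pass (median log2 fold change −0.42, against 0.07 over all genes), so that 45.5% passed, against 27.6% of all genes tested. With the replicate block Ep300 was lower too (−0.51, edgeR adjusted p = 0.0258), in a fit that 33.8% of all genes passed. Afdn, encoding the junction protein afadin, was at 4.48 ± 0.313 CPM in Rpl22+/+ and 26.6 ± 4.44 in Rpl22-/- (2.57 ± 0.18 (SE), edgeR adjusted p = 0.000192). Tet1, encoding a methylcytosine dioxygenase, was at 0.762 ± 0.465 and 12.6 ± 4.57 CPM (4.04 ± 0.60, edgeR adjusted p = 0.00381). Gas7, encoding a regulator of the actin cytoskeleton, was at 73.9 ± 11.6 and 11.4 ± 2.24 CPM (−2.70 ± 0.21, edgeR adjusted p = 0.000332). Sept9, encoding a septin, was at 383 ± 108 and 150 ± 21.7 CPM (−1.35 ± 0.23, edgeR adjusted p = 0.00661). The others that were lower were Sept5, Foxo3, Picalm, Maml2, Abi1 and Arhgap26.

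Of 17 Mll-AF9 target genes 16 were tested, of which 5 were higher, 2 lower and 9 did not pass (median 0.41). Thus 43.8% passed, against 27.6% of all genes tested. With the replicate block Hoxa7 (0.50, edgeR adjusted p = 0.0459) and Zeb2 (−1.08, edgeR adjusted p = 0.0234) passed too, in a fit that 33.8% of all genes passed. Mecom, encoding the transcription factor EVI1, was at 3.46 ± 0.749 and 95.5 ± 8.30 CPM (4.78 ± 0.22 (SE), edgeR adjusted p = 5.52e-05). Hoxa5, Cdk6 and Lmo2 were also higher. Eya1, a transcriptional coactivator, was at 23.9 ± 6.35 and 0.0376 ± 0.0249 CPM, with 10 reads in all over the Rpl22-/- libraries, so that its fitted value (−9.15 ± 0.47, edgeR adjusted p = 7.66e-05) depends on the prior count. Pbx3, a Hox cofactor, was at 6.17 ± 0.921 and 3.35 ± 0.293 CPM (−0.88 ± 0.19, edgeR adjusted p = 0.0163). Hoxa9 and Meis1, the best known targets of the fusion, did not pass. Hoxa9 fell just short, at 0.38 ± 0.12 (edgeR adjusted p = 0.0516). It was at 73.0, 73.0 and 73.9 CPM in Rpl22+/+ and at 101, 94.7 and 89.9 in Rpl22-/-, without overlap. Meis1 was at −0.06 ± 0.13 (edgeR adjusted p = 0.778). The groups also differed in T-cell and erythroid markers and in Itgam and Ly6g, as given above, and the part of these in the values here was not tested.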
